A study of Drosophila melanogaster with 48 samples.

Results

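The genes described here are 111 Drosophila genes whose fitted 24 h curve of ribosome-bound mRNA peaked late in the subjective day. That is the part of the daily cycle from 6 to 12 h after the time when lights would have come on. These genes were chosen by a rule from 9392 genes tested in astrocytes of fly heads. A cosine of 24 h was fitted to the log2 normalized counts of each gene over all libraries, with a term for the biological replicate, and a gene was kept at an unadjusted p under 0.05 with a fitted peak at 6 h or later and before 12 h. That gave 121 genes, of which the 10 named in the article's text or main table were left out. The rhythm over 24 h is therefore what selected these genes, and their 24 h amplitudes and peaks are given as a description with no test.

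TRAP (translating ribosome affinity purification) was used by the study to follow translation in 1 cell type. Flies carried elav-Gal80, eaat1-Gal4 and UAS-EGFP-L10a, so that a large ribosomal subunit protein tagged with EGFP was made mainly in astrocytes, and ribosomes were pulled down from pooled heads with an antibody to EGFP. This genotype was shared by every library. The groups are times: flies were frozen every 4 h from 0 to 44 h in constant darkness (DD) after entrainment to light and dark cycles, in 2 biological replicates from independent crosses. The eaat1-Gal4 driver also labels some cortex glia, elav-Gal80 blocks Gal4 in neurons, and neither age nor sex of these flies is stated in the sources used here. In such bulk samples a smaller number of labelled cells and less ribosome-bound RNA per cell cannot be told apart.

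Astrocytes of the fly take up neurotransmitters, shape synapses and secrete proteins, and many contain a molecular clock built on the proteins PER and TIM. Proteins that leave a cell or sit in its membranes enter the endoplasmic reticulum (ER) while they are being made: the signal recognition particle brings the ribosome to its receptor on the ER, the chain passes through a channel, signal peptidases trim it, and oligosaccharyltransferase attaches N-linked sugars. Chaperones, disulfide isomerases and prolyl isomerases fold the chain, and coated vesicles carry it to the Golgi. Several proteins of this route were among the 111 genes.

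For each time point and replicate 2 data sets were added up and are called a library here. The sample titles also carry a letter, whose meaning is not given. In replicate 1 it is a for 7 time points and b for 4 (4, 12, 20 and 28 h) in both data sets, and d and e for the data sets at 16 h, while in replicate 2 it is c in 1 data set and g in the other at all times. Libraries held 6371034 to 37267216 counts on genes, so that a gene with a mean of 20 counts, the lowest kept, rests on few reads and an abundant one on many. Of these libraries, 3 stand apart. At 28 h in replicate 1, 1 of the data sets contains only 91 counts. The 28 h library of replicate 2 has 49.6% of its counts in 10 genes against 9.20% to 14.6% elsewhere. The 16 h library of replicate 1 has 9.47% of its tallied alignments not unique against 21.7% to 36.9% in the rest of replicate 1. Of the markers listed for cell types, 2 of 10 for glia, 5 of 13 for photoreceptors, 1 of 6 for hemocytes, 4 of 9 for midgut enzymes and 2 of 14 for ovary and testis could be matched to a name here, and none for neurons, fat body or muscle. The defining astrocyte markers alrm, Eaat1 and Gs2 were not matched and so the label of the tissue could not be checked with them.

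Of all genes tested, 8.24% had an unadjusted p under 0.05 at any peak time and 1.29% met the limits of the rule. A fitted peak in the window was found for 1978 genes, of which 121 had p under 0.05. At an unadjusted limit, genes without a rhythm also pass, so the members are not 111 established rhythms. After adjustment for the number of genes (Benjamini-Hochberg) the share was 0.628%, and of the 111 members only phtf passed (adjusted p = 0.0343 in the least-squares fit). By the same limits 279 genes peaked in the early subjective day, 201 in the early subjective night and 128 in the late subjective night. The late subjective day was thus the smallest group. Its median amplitude, that is, how far the fitted curve rises over its mean, was 0.28 on the log2 scale (range 0.15 to 1.07), against 0.35, 0.29 and 0.34 in the other groups in the order given. Amplitudes above 0.5 were found in 10 members (9.01%), against 17.2%, 20.9% and 21.9% of the other groups.

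Peaks were concentrated at the early end of the window. There were 39 members with a peak before 7 h, 27 from 7 to 8 h, 18 from 8 to 9 h, 14 from 9 to 10 h, 8 from 10 to 11 h and 5 later. A symbol could be given to 87 members, and 24 are counted without a name. Names came from tables that favour rhythmic genes, so named genes are not a random sample of those tested (18.9% of the tested genes but 78.4% of the members have one).

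The median member lay above its own mean at 4, 8, 12, 28 and 32 h in both replicates. At 0 and 24 h, also in the subjective day, it lay below its mean in both (-0.08 and -0.05 in replicate 1). In replicate 2 the median deviation was 0.38 on the log2 scale at 8 h, -0.33 at 24 h, 0.19 at 32 h and -0.51 at 44 h. In replicate 1 it was 0.20 at 8 h, -0.19 at 16 h, 0.26 at 28 h and -0.25 at 44 h. The second maximum thus lay at 28 h in replicate 1 and at 32 h in replicate 2, and the swing was wider in replicate 2. At 8 h, 100 of 111 members lay above their mean in replicate 1 and 105 in replicate 2. The share of all genes was 56.5% and 55.6%. At 44 h, 15 and 9 members lay above their mean, against 57.1% and 57.0% of all genes. The rule chose the members by their course over these same libraries, so nothing is read from these counts. The median of all genes tested stayed between -0.06 and 0.11 over the libraries.

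**Figure D1:**
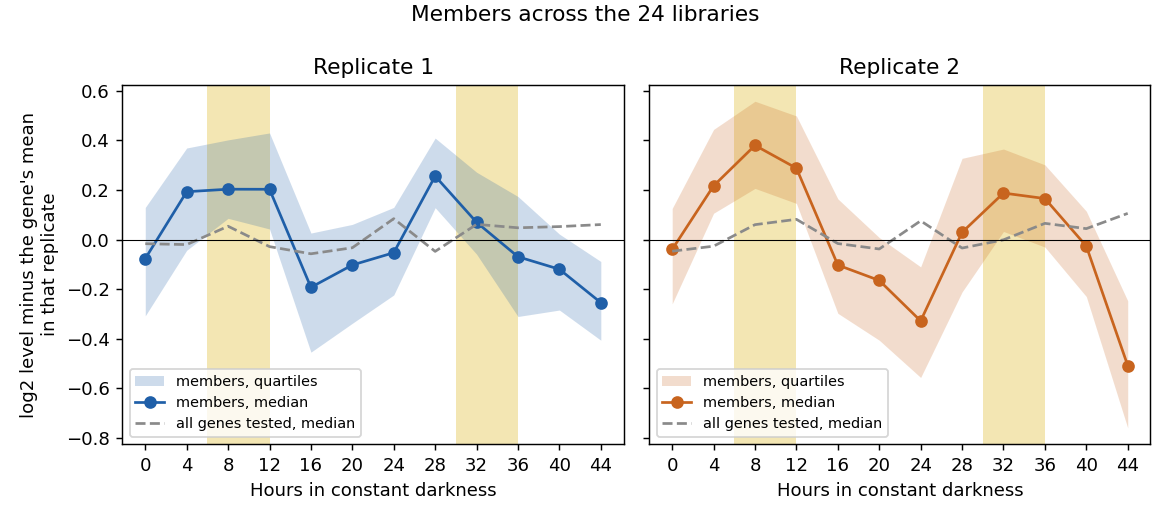
Median log2 level of the 111 members (points and line) with their lower and upper quartiles (band), each gene centred on its mean within the replicate, against hours in constant darkness. The dashed line is the median of all genes tested and the yellow bands mark 6 to 12 h and 30 to 36 h. The members' median is highest at 8 h in replicate 2 (0.38) and lowest at 44 h in replicate 2 (-0.51).

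The member of smallest p was phtf (chromosome 2R of Release 6, 6741899 to 6746141), which encodes a conserved membrane protein. In replicate 1 its normalized counts were 159.6, 230.3, 263.0, 182.9, 140.8 and 179.8 over the first day from 0 to 20 h, and 281.0, 254.5, 248.4, 192.2, 164.3 and 162.3 over the second day from 24 to 44 h. In replicate 2 they were 174.5, 278.4, 262.7, 213.8, 167.7 and 160.6, and then 125.6, 231.3, 210.3, 236.3, 179.7 and 130.7. The replicates ran together except at 24 h, where replicate 1 had its highest value and replicate 2 its lowest. The fitted peak was at 6.79 h and its amplitude 0.37 ± 0.07 (SE). The 4 libraries at 8 and 32 h averaged 246.1 ± 24.8 (SD, n = 4) and the 4 at 20 and 44 h averaged 158.3 ± 20.4 (SD, n = 4), and these did not overlap.

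CG8360, a predicted cytidine deaminase (2L, 8212959 to 8214135, overlapped by CG8353), differed in level between the replicates while it followed a like course in both. Its normalized counts ranged from 1055.6 at 20 h to 1887.6 at 28 h in replicate 1 and from 771.7 at 44 h to 1313.0 at 28 h in replicate 2. It peaked at 7.88 h with an amplitude of 0.24 ± 0.05 (SE). Sply, the sphingosine-1-phosphate lyase that ends sphingolipid breakdown, had 1340.4 and 1535.8 normalized counts at 8 and 32 h in replicate 1 and 1106.0 and 1004.0 in replicate 2. At 20 and 44 h it had 992.0 and 938.1, and 763.4 and 666.3. The lowest value at 8 and 32 h, 1004.0, lay just above the highest at 20 and 44 h. At 40 h, also in the subjective night, Sply had 1456.5 in replicate 1 and 1017.6 in replicate 2. CG10866, whose role is not known here, fell from 254.3 ± 40.6 (SD, n = 4) at 8 and 32 h to 120.2 ± 47.7 (SD, n = 4) at 20 and 44 h.

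**Figure D2:**
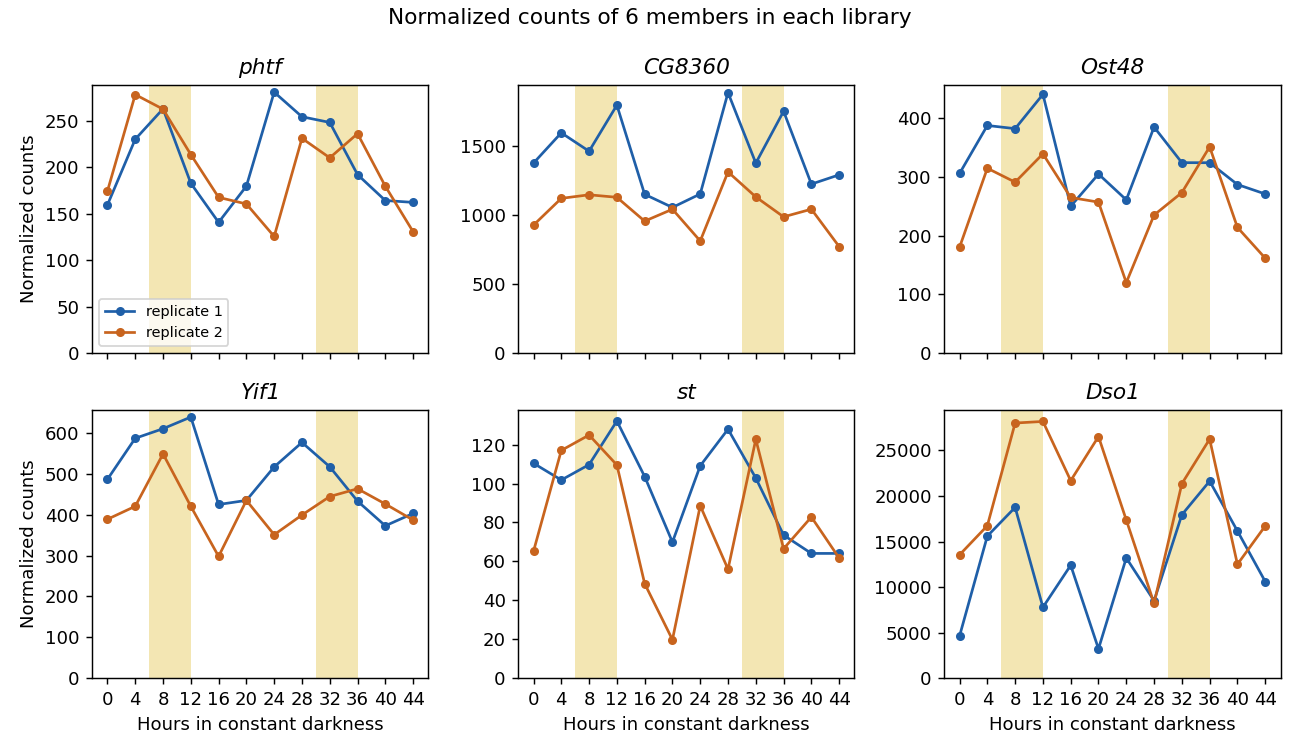
Normalized counts of phtf, CG8360, Ost48, Yif1, st and Dso1 in each library against hours in constant darkness, with 1 line per biological replicate and vertical axes that start at 0. Yellow bands mark 6 to 12 h and 30 to 36 h. CG8360 is higher in replicate 1 throughout, Dso1 is higher in replicate 2 in 10 of the 12 time points, and st falls to 19.8 at 20 h in replicate 2.

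The other members of smallest p were Yif1, CG30183, Bub3, lin and 1 gene without a name. Bub3, a protein of the spindle checkpoint, averaged 179.9 ± 29.6 (SD, n = 4) at 8 and 32 h and 113.3 ± 35.0 (SD, n = 4) at 20 and 44 h. The gene lin encodes Lines, a nuclear regulator of development, and went from 219.3 ± 45.9 to 149.2 ± 56.5 (SD, n = 4 each). Of all members, 26 had every library at 8 and 32 h above every library at 20 and 44 h, as 1.10% of all genes tested did. That comparison uses the contrast by which the members were chosen, so nothing is read from it.

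The members just inside and outside the limits had similar values. By p, Cyp6g1 (amplitude 0.32 ± 0.12) and prominin-like (0.25 ± 0.09) were the last kept, while CG13026 (0.66 ± 0.25, peak at 7.52 h) and a gene without a name were the first left out. By peak, Gcn2 at 6.07 h and a gene without a name at 6.11 h were the first kept, while OS9 and CG10962 at 5.99 h each were left out. At the other end betaggt-I at 11.6 h and a gene without a name at 11.9 h were kept, and AhcyL2 and Usp8 at 12.2 h each were left out.

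Among the 87 named members, 15 belong to the ER and the early secretory pathway. This group was put together after the values were seen, and it is given as a way to order the genes, with no test. Ost48, OstDelta, Stt3B and CG33303 (the ribophorin I homologue) are subunits of oligosaccharyltransferase, so that several parts of the same enzyme were in the list. Alg11 builds the sugar chain that this enzyme transfers. SrpRbeta and Gtp-bp form the receptor of the signal recognition particle, CG5885 is the gamma subunit of the translocon-associated protein complex and Spp is the signal peptide peptidase. Among the folding factors, ERp60 is a disulfide isomerase, CG2852 a cyclophilin and Sil1 the nucleotide exchange factor of the chaperone BiP. Yif1, loj (a p24 cargo receptor) and ArfGAP3 act in transport between the ER and the Golgi.

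Ost48 (X, 9156929 to 9158515) had the smallest p of the group. In replicate 1 its normalized counts were 305.8, 387.5, 382.1, 440.5, 250.0 and 304.8 from 0 to 20 h, and 260.9, 384.8, 324.2, 324.1, 287.0 and 270.9 from 24 to 44 h. In replicate 2 they were 180.2, 314.7, 291.0, 339.2, 264.9 and 257.0, and then 120.0, 235.0, 273.2, 351.1, 214.0 and 161.6. Both replicates were high at 12 h and low at 24 and 44 h, and the second rise came at 28 h in replicate 1 and at 36 h in replicate 2. The fitted peak fell at 9.50 h, with an amplitude of 0.35 ± 0.08 (SE).

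CG33303 had 310.1 and 272.5 normalized counts at 8 and 32 h in replicate 1 and 327.0 and 265.9 in replicate 2, and at 20 and 44 h it had 167.3 and 169.8, and 197.7 and 277.8. The last of these, at 44 h in replicate 2, was above the lowest value at 8 and 32 h, so the groups overlapped in 1 library. From here on, values given by day are those at 8 and 32 h alone, and values by night those at 20 and 44 h alone. For OstDelta the same libraries gave 293.6, 292.7, 355.4 and 374.2 by day, and 182.5, 212.8, 252.0 and 266.9 by night. Stt3B gave 307.4, 238.1, 365.7 and 253.6, and 192.3, 182.6, 224.8 and 232.4. Neither OstDelta nor Stt3B overlapped between these times, though OstDelta had an unadjusted p close to the limit and was kept in 7 of the 24 fits that left out 1 library. Peaks of the 4 subunits were spread from 6.54 h for Stt3B to 9.99 h for OstDelta.

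Sil1 had the largest amplitude of the group, 0.57 ± 0.20 (SE), on a mean of 65.5 counts. It had 66.4, 62.0, 73.4 and 71.1 normalized counts in the libraries at 8 and 32 h and 49.4, 25.7, 24.7 and 9.1 at 20 and 44 h, with the lowest in replicate 2 at 44 h. The most abundant was CG2852, which averaged 5802.6 ± 489.9 (SD, n = 4) at 8 and 32 h and 5086.0 ± 571.0 (SD, n = 4) at 20 and 44 h, a small change. ERp60 went from 1366.7 ± 257.2 to 1187.3 ± 205.5, CG5885 from 1439.2 ± 339.7 to 951.3 ± 172.4 and ArfGAP3 from 732.8 ± 112.1 to 521.3 ± 103.0 (SD, n = 4 each). Yif1 (3R, 26717871 to 26719806) had 444.3 to 610.1 normalized counts at 8 and 32 h and 386.7 to 434.8 at 20 and 44 h, without overlap.

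The remaining named genes of this route were looked at in the same fit. The tables give a name to 44 genes of the ER and early secretory pathway that were tested, 15 of them members (34.1%, against 4.89% of the 1778 named genes tested). Of the 44, 16 met the limits of the late subjective day, meigo being the one left out because the article names it, 10 peaked in the early subjective day with p under 0.05, none peaked at night with such a p, and 18 were not called. Fitted peaks of all 44 lay between 2.86 and 11.3 h, whereas 45.6% of all genes tested peaked from 0 to 12 h. In replicate 1 alone 43 of the 44 peaked from 0 to 12 h (51.0% of all genes), and in replicate 2 alone 42 did (45.9%). Since the list was written with values known, and genes are not independent replicates, this is a description and not a test.

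Those that peaked earlier with p under 0.05 included Ire1 (4.44 h, amplitude 0.39 ± 0.12) and PEK (4.18 h, 0.19 ± 0.07), the sensors of the unfolded protein response, Syx18 (4.03 h, 0.29 ± 0.06), a membrane fusion protein of the ER, and Alg7 (5.96 h, 0.38 ± 0.10), which starts the sugar chain. Gp93, the ER chaperone of the Hsp90 family, had a peak at 7.88 h and an amplitude of 0.29 ± 0.11, and just missed the limit. The median amplitude of the 44 was 0.23, against 0.27 for all named genes. Amplitudes of Edem1 (0.07 ± 0.09) and KdelR (0.10 ± 0.06), which act in degradation and retrieval, were among the smallest of the list.

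**Figure D3:**
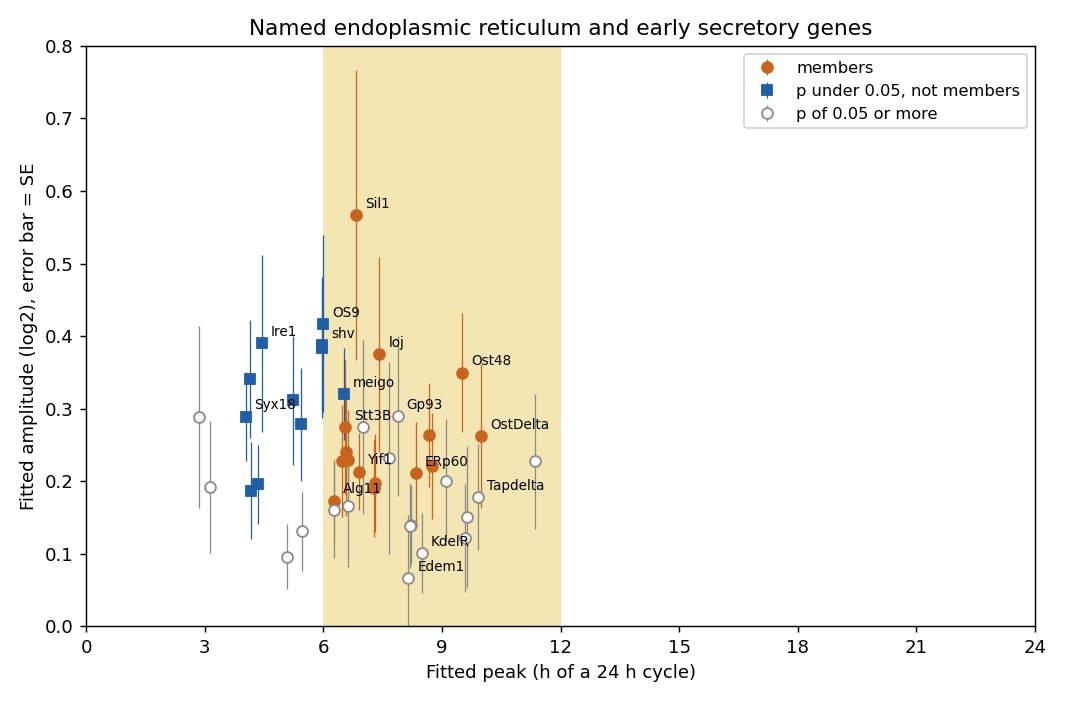
Fitted amplitude (log2, error bars are SE) against fitted peak for the 44 named genes of the ER and early secretory pathway, with members in orange, other genes with p under 0.05 in blue and the rest open. The yellow band marks the window of 6 to 12 h. All points lie between 2.86 and 11.3 h, and Sil1 has the largest amplitude (0.57).

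Other members act in protein synthesis. The beta subunit of eIF2, the factor that brings the initiator tRNA to the ribosome, is encoded by eIF2beta, whose normalized counts were 1645.1 ± 269.2 at 8 and 32 h and 1366.0 ± 410.4 at 20 and 44 h (SD, n = 4 each). Gcn2, a kinase of eIF2 that responds to lack of amino acids, had 129.9 ± 24.1 and 100.1 ± 28.6 (SD, n = 4 each). Both overlapped between these times. Tudor-SN, a nuclease found with RNA granules, had an amplitude of 0.18 ± 0.05. No gene of the cytosolic ribosomal proteins (15 named and tested) was called at any time. Of the mitochondrial ribosomal proteins 6 of 13 were, all of them at night. For all 1778 named genes the number called was 624 (35.1%), 283 of them at night.

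Several members act in metabolism. One is AkhR, the receptor of adipokinetic hormone, which mobilizes stored fat and sugar. Its normalized counts were 1509.8 and 1528.9 at 8 and 32 h in replicate 1 and 1200.0 and 1052.4 in replicate 2. At 20 and 44 h they were 1275.9 and 1085.2, and 896.9 and 778.9. Within each replicate the values at 8 and 32 h were higher than these, and the replicates differed by about as much as the times did. Sply and nSMase, a neutral sphingomyelinase, both act on sphingolipids, and nSMase had an amplitude of 0.18 ± 0.05 with a peak at 7.05 h. CG8036, a transketolase of the pentose phosphate pathway, had 10083.2, 9031.4, 6256.4 and 4952.9 by day, and 5694.1, 5373.4, 4647.4 and 3580.5 by night. Pdxk (pyridoxal kinase), Dhod (dihydroorotate dehydrogenase) and the carbonic anhydrase CAH7 had amplitudes of 0.18 ± 0.06, 0.19 ± 0.06 and 0.24 ± 0.07.

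The enzymes that process foreign and endogenous small molecules were represented by Ugt37A3 and Ugt35C1 (UDP-glycosyltransferases), GstD3 (a glutathione transferase), Cyp6g1 (a cytochrome P450 known for insecticide resistance) and CG10863 (an aldo-keto reductase). The amplitude of Ugt37A3 was the largest of all members, 1.07 ± 0.31 (SE) on a mean of 81.4 counts. Its normalized counts at 8 and 32 h were 146.6 and 130.9 in replicate 1 and 73.4 and 34.02 in replicate 2, and at 20 and 44 h 23.6 and 6.8, and 32.1 and 7.3. By contrast, CG10863 changed less and more evenly, from 1042.4 ± 208.9 to 667.3 ± 57.7 (SD, n = 4 each). GstD3 gave 416.3, 381.2, 323.2 and 179.4 by day and 194.0, 230.9, 222.4 and 141.6 by night. The 32 h library of replicate 2 thus fell among the values at 20 and 44 h. Ugt35C1 gave 477.2, 509.2, 616.8 and 359.7 by day and 299.5, 240.7, 402.7 and 228.8 by night.

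Of 28 named cytochrome P450 genes, 15 were called at some time (35.1% of all named genes were), 3 of them in the late subjective day, and of these Cyp6g1 alone is a member because the article names the others. Its values were 1896.6, 1822.1, 1554.1 and 1502.9 by day and 1382.7, 1393.2, 1255.1 and 666.3 by night, and it shares its bounds with Cyp6g2. Glutathione transferases had 1 member of 8 named (4 called), and UDP-glycosyltransferases 2 of 7 (4 called).

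Secreted and immune proteins among the members were PGRP-SA, the circulating receptor of peptidoglycan that starts Toll signalling, NimB2 and NimB5 of the Nimrod family, the Daisho peptide Dso1 (formerly IM4), the serine protease Ser7, and the Kazal-type Kaz1-ORFB. PGRP-SA had 600.2 and 516.5 normalized counts at 8 and 32 h in replicate 1 and 471.3 and 426.7 in replicate 2, and at 20 and 44 h 438.8 and 630.2, and 321.2 and 301.4. The value at 44 h in replicate 1 was above all values at 8 and 32 h. So were those at 36 and 40 h in that replicate (769.5 and 715.8), and those at 4, 12 and 28 h (777.1, 672.2 and 744.2). Dso1, whose mean of 18839.7 counts was the highest of the named members, had an amplitude of 0.51 ± 0.18 with a peak at 10.8 h. Its counts ranged from 3224.7 at 20 h to 21630.3 at 36 h in replicate 1 and from 8217.5 at 28 h to 28179.8 at 12 h in replicate 2. At 20 h the replicates had 3224.7 and 26520.5, so they were further apart at that time than most time points were from each other. NimB2 peaked at 11.2 h with an amplitude of 0.24 ± 0.09 and NimB5 at 8.44 h with 0.21 ± 0.08. NimB2 and NimB5 lie 3159 bp apart on chromosome 2L (13965012 to 13967018 and 13970177 to 13972173).

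The members st and Cpr62Bb are known from other tissues of the head. The gene st (scarlet), which encodes an ABC transporter of eye pigment precursors, had 109.7, 102.8, 124.9 and 122.7 normalized counts at 8 and 32 h, and 69.9, 64.1, 19.8 and 61.7 at 20 and 44 h. Cpr62Bb is a cuticle protein and went from 186.4 ± 23.8 to 128.5 ± 21.7 (SD, n = 4 each). PCNA, the sliding clamp of DNA replication, had 63.7, 31.0, 32.2 and 29.9 by day and 11.6, 23.4, 4.9 and 9.1 by night on a mean of 28.5 counts. Gp210, a protein of the nuclear pore, had 65.6, 79.2, 108.2 and 94.8 by day and 49.0, 58.1, 34.6 and 47.2 by night. Of the members with a mean of 100 counts or more, st, CG10866, CG42846, CG3651, CG34348, Ugt35C1, Dso1 and 1 gene without a name had the largest amplitudes, from 0.39 to 0.51.

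Lists of gene families set by symbol held few named genes, and 1 member each at most beside the UDP-glycosyltransferases. Of all named genes 4.89% are members and 35.1% were called. Members were 1 of 4 translation factors, 1 of 6 peptides and G protein-coupled receptors, 1 of 9 cuticle and chitin genes and 1 of 15 serine proteases and serpins. They were also 1 of 17 antimicrobial and immune genes and 1 of 3 of DNA replication and cycle. In lists this small 1 member alone exceeds 4.89%, so nothing is read from these shares. Of 28 cytochrome P450 genes 1 was a member (3.57%). There was none among 7 clock genes (4 called in the early subjective night and 1 in the early subjective day), 20 of the respiratory chain (1 called in the early subjective day and 4 in the early subjective night), 9 set as lipid metabolism by symbol, which do not include Sply and nSMase (5 called), 7 ion channels (2 called), 7 ubiquitin enzymes (3 called), 7 of actin and myosin (2 called), 5 each of the proteasome, of glycolysis and trehalose and of the chemosensory genes (1 called each), 4 Rab GTPases (1 called), 4 of histones and chromatin (3 called), 3 chaperones (1 called), 3 tRNA synthetases (1 called), 3 solute transporters (3 called), 2 of the V-ATPase and 2 of splicing (0 called). No gene of the mitochondrial genome was named. As the names favour rhythmic genes, these shares do not stand for whole families.

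Each replicate was then fitted alone. In replicate 2, 107 of the 111 members peaked from 6 to 12 h (23.8% of all genes tested did), and 46 of them also had p under 0.05 (2.26% of all genes). In replicate 1, 69 members peaked there (21.9% of all genes) and 7 had p under 0.05 (0.405% of all genes), while 39 peaked before 6 h and 3 from 12 to 18 h. Peaks of 65 members were in the window in both. The amplitude was larger in replicate 2 for 78 members, with medians of 0.36 and 0.24. On day 1 alone 92 members peaked in the window (32.4% of all genes) and on day 2 alone 91 did (20.3%). These fits use the libraries by which the members were chosen, so the counts describe where the signal came from and do not test it.

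**Figure D4:**
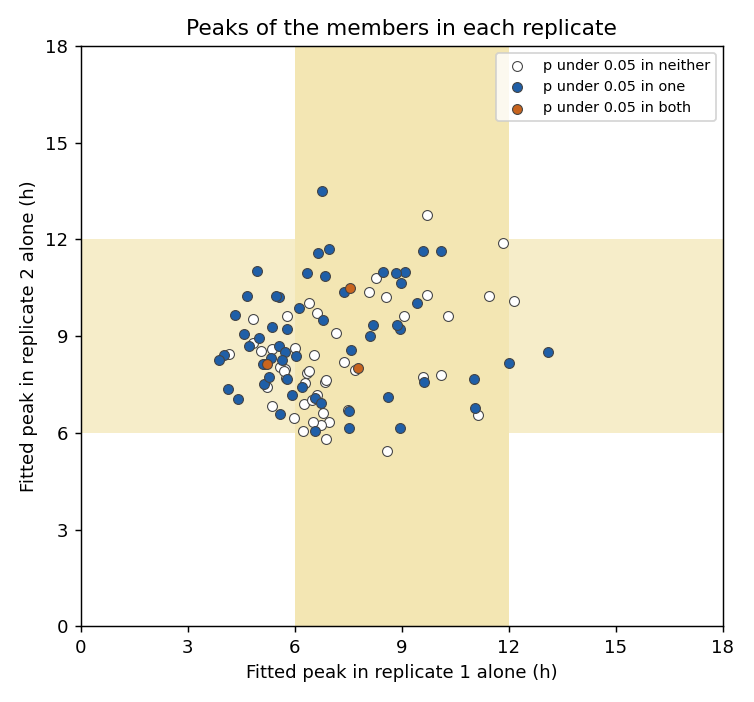
Fitted peak of each member in replicate 2 alone against that in replicate 1 alone (h of a 24 h cycle), colored by the number of replicates in which the p of that fit was under 0.05. Yellow bands mark 6 to 12 h on each axis. In replicate 2, 107 members lie in the band, and in replicate 1, 69 do, with most of the others earlier.

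A reading that is independent of the choice is to select genes in 1 replicate and read them in the other. Of 34 genes chosen by the same limits in replicate 1, 11 peaked from 6 to 12 h in replicate 2 (32.4%, against 23.8% of all genes). Of 204 genes chosen in replicate 2, 49 peaked there in replicate 1 (24.02%, against 21.9%). Only 2 genes, CG8360 and Ost48, met the limits in both replicates. They are 5.88% of the 34 genes, against 2.26% of all genes that met the limits in replicate 2, and 0.980% of the 204, against 0.405% of all genes in replicate 1. Values for the early subjective day were 48.5% against 22.1% and 45.7% against 29.1%, and 33 genes met the limits of that window in both replicates. For the early subjective night they were 35.9% against 30.4% and 31.0% against 29.6%, and for the late subjective night 54.3% against 23.7%, and 35 of 140 genes against 19.4%. The difference between the windows was not tested. In the late subjective day the share for the genes chosen in replicate 2 was thus near that of all genes. For those chosen in replicate 1 it rested on 11 of 34 genes. With quantile normalization that share was 23.3%, below the 28.4% of all genes, so no excess is read from it.

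The level of the members over all times was compared between the replicates with edgeR's quasi-likelihood test, with the 24 h cosine and sine in the model. This difference was not used by the rule. With Benjamini-Hochberg adjustment over all genes, 40 members differed (36.04%), against 33.7% of all genes tested, so the share was near that of the background. The direction was uneven: 31 members were higher in replicate 1 (15.8% of all genes were) and 9 in replicate 2 (17.9%). The median log2 change from replicate 1 to 2 was -0.19 for the members and 0.02 for all genes. Replicates differ in crosses and in their share of alignments that were not unique, and these cannot be told apart.

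The named members of smallest adjusted p in that test were CAH7 and CG1275, a cytochrome b561, beside 2 genes without a name. CAH7 was higher in replicate 2 by 0.47 on the log2 scale (edgeR, adjusted p = 0.000234), with 829.2 and 702.0 normalized counts at 8 and 32 h against 727.2 and 674.4 in replicate 1. For CG1275 the change was -0.43 (edgeR, adjusted p = 0.000657). The values of PGRP-SA, -0.50, Tudor-SN, -0.41, and CG8360, -0.45, were close to it (edgeR, adjusted p = 0.000679, 0.000872 and 0.00105). Of the ER group CG5885 (-0.53), Ost48 (-0.41), Gtp-bp (-0.39) and Yif1 (-0.25) were lower and Stt3B (0.31) was higher in replicate 2, and the other 10 did not pass the test.

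No member differed between day 1 and day 2 of DD at an adjusted p under 0.05 in edgeR, nor did any gene tested (0%). At an unadjusted p under 0.05 there were 23 members (20.7%), against 18.2% of all genes. All 23 were lower on day 2, as 7.26% of all genes were. The median log2 change from day 1 to day 2 was -0.14 for the members and -0.01 for all genes, and 16 of 111 members had a positive value. DESeq2 called 6.22% of all genes and 2 members, CG4409 and CG4408, a predicted metallocarboxypeptidase, with changes of -0.43 and -0.36 (DESeq2, adjusted p = 0.0439 and 0.0479). CG4409 had 772.8 and 834.4 normalized counts at 8 h and 598.2 and 573.1 at 32 h. The rule took variation between days as error, so genes with a large difference between days were less likely to be chosen.

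A second rhythm, of 12 h, was looked for in the same way. In edgeR no member and no gene (0%) had an adjusted p under 0.05 for the cosine and sine of 12 h, and DESeq2 called none either (0%). At an unadjusted p under 0.05 there were 6 members (5.41%), among them CG33303, Stt3B, CAH7 and PGRP-SA, against 11.6% of all genes. Here too the rule took such variation as error. For the replicate difference DESeq2 called 43 members, against 36.3% of all genes.

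Which genes were members depended on single libraries. Between 62 and 97 of the 111 were chosen again when 1 of the 24 libraries was left out, and 36 were chosen in every one of these fits. Among these 36 were phtf, CG8360, Ost48, Yif1, CG33303, Bub3, lin, st, PGRP-SA, GstD3 and Ugt37A3. The 44 h library of replicate 2 mattered most: without it 85 genes met the limits and 49 members were lost, although 42 of these kept a peak in the window. Next was the 8 h library of replicate 2, without which 70 members were chosen again. Without the 36 h library of replicate 1 the number of genes that met the limits rose to 174. Of the 15 ER genes only 3, Ost48, Yif1 and CG33303, were chosen in every fit that left out 1 library. In the single fits 9 to 15 of the 15 were chosen again. There were 9 without the 20 h or the 32 h library of replicate 2 and 10 without its 8 h library. Of the same 15 genes, 10 were chosen again without the 44 h library of replicate 2 and 12 without the 28 h library of replicate 1. Without the 28 h library of replicate 2 there were 14, and 13 without the 16 h library of replicate 1.

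**Figure D5:**
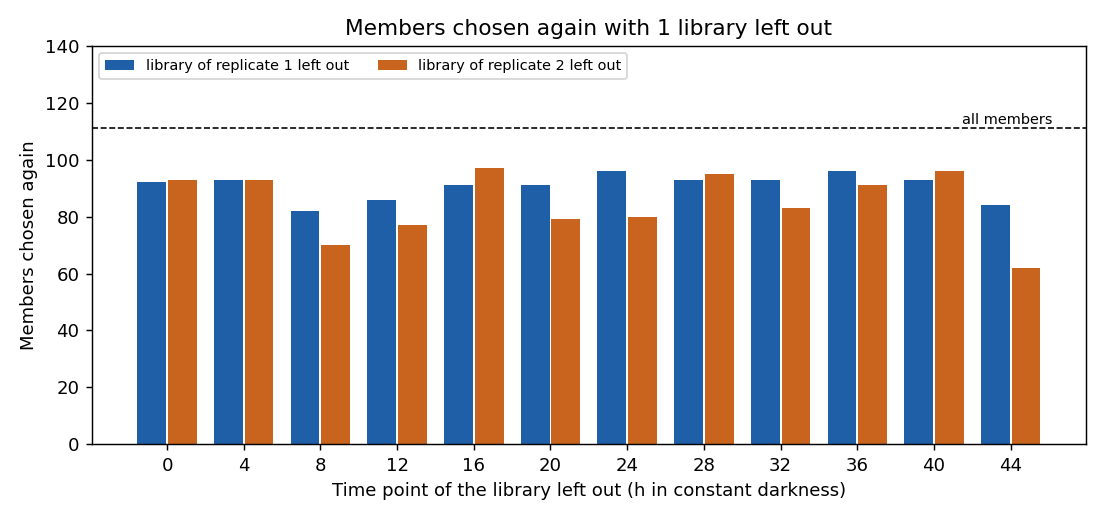
Number of the 111 members chosen again by the same limits (bars) when the library of 1 time point and replicate was left out, against the time point of that library. The dashed line marks all members. The lowest bar is the 44 h library of replicate 2 (62) and the highest the 16 h library of replicate 2 (97).

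With the letter of the titles as a block in place of the replicate, an alternative added after the data were seen, 131 genes met the limits and 88 of the 111 were among them, as were all 36 of those chosen in every fit above. A peak in the window was kept by 107 members, against 1878 of all 9392 genes. In the 7 libraries of letter a in replicate 1 alone, 54 members peaked in the window (22.9% of all genes) and 43 before it. The 4 libraries of letter b were too few to fit, and in them the median member lay between -0.10 and 0.26, against -0.25 to 0.20 in those of letter a. Of the ER list, all 44 peaked from 0 to 12 h with the letter as a block (45.6% of all genes) and 40 in the libraries of letter a alone (53.3%). Both fits reuse libraries whose values were known when the list was written, so these counts are a description and not a test.

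Markers of other cells also varied between libraries. The summed normalized counts of the 5 photoreceptor markers (Arr1, inaD, Rh5, Rh6 and chp) were 16612.6 to 21136.1 in the 4 libraries at 8 and 32 h. In the 4 at 20 and 44 h they were 21151.0 to 29991.0, in the opposite direction to the members, and the 2 ranges nearly touched. Of these 5 markers 2 were themselves called in the 24 h fit, and Arr1 met the limits of the early subjective day in each replicate alone. A rhythm of these genes and the share of photoreceptors thus cannot be told apart in the sum. This sum was highest at 0 h in replicate 1 (34289.4). Sums of the other marker lists overlapped between 8 and 32 h and 20 and 44 h. In the 44 h library of replicate 2, where the median member was lowest, the photoreceptor sum was 29991.0. There the sums of the midgut enzymes (2216.9) and of the ovary and testis markers (789.8) were the highest of all libraries. Within its replicate 48 members were lowest in that library, as 14.9% of all genes were. The 2 glial genes (wrapper and Indy) summed to 479.0 to 673.1 by day and 484.3 to 802.5 by night, and NimC1 of hemocytes to 28.7 to 65.7 and 19.8 to 40.9. The part of these differences in the members' course was not tested.

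Of the 87 named members 8 lie on chromosome X, 15 on 2L, 21 on 2R, 21 on 3L and 19 on 3R, shares of 9.20%, 17.2%, 24.1%, 24.1% and 21.8%, against 14.6%, 19.2%, 20.5%, 19.9% and 24.6% of the named genes tested. There were 7 pairs of members less than 20 kb apart, the closest being the serine protease genes CG30002 and CG1773 on 2R with 120 bp between them. Bounds of another annotated gene overlapped those of 42 of 84 members with coordinates, and 853 of 1769 named genes tested. The setting of strand in the counting is not given in the sources used here, so reads of such partners may not be fully separated. CG10680 (2L, 19964136 to 19965702), which shares bounds with the ER gene OS9, peaked at 7.15 h and OS9 at 5.99 h.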

How the data were processed

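Ribosome-bound RNA of astrocytes was measured in 24 libraries (12 time points, 2 biological replicates). The authors trimmed single-end reads with FastX, aligned them to Release 6 (BDGP6) with Tophat and Bowtie, tallied reads per gene with HTSeq-count and deposited raw counts for 48 data sets, without filtering or normalization; the submitters' processing notes name TopHat2 2.0.9, SAMtools 0.1.19 and HTSeq 0.6.1. Reads that aligned to several places or to several genes were tallied apart and are in no gene count. The strand setting is not given in the sources used here.

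Counts of the data sets of a library were added up, genes with a mean of 20 counts or more were kept, and counts were divided by median-of-ratios size factors (normalized counts). The log2 of these plus a pseudocount of 1 was fitted by least squares on replicate, cosine and sine of 24 h (numpy 2.4.6, scipy 1.17.1, pandas 2.3.3 in Python 3.11.15). The replicate, day and 12 h differences were tested with glmQLFTest of edgeR 4.0.16 (R 4.3.3, TMM normalization, all 24 libraries, 24 h terms and replicate in the model) with Benjamini-Hochberg adjustment over all genes, and with DESeq2 1.42.0 as an alternative. Both the rule and the edgeR fits were tested on simulated counts, drawn independently for each library with the same dispersion for every gene. Such counts lack the correlation between libraries given at the end, so they do not vouch for the p-values in these data. The p-values measure the spread between these libraries.

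Members and gene lists were chosen with earlier results of these data known. The genes named are the 10 of smallest p, the 8 of largest amplitude among members with a mean of 100 counts or more, members of the lists set by symbol, the 2 on each side of each limit, those of smallest adjusted p in the other tests, and those that met the limits in both replicates. All others, and the ER list, were chosen after their values were seen. Symbols came from the article's supplementary tables and RefSeq (1925 identifiers), coordinates from RefSeq's Release 6 annotation. Promoter sequences were not used here.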

Additional observations from a re-analysis of the deposited data

How the results depend on the processing

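The number of members, 111, stayed within 1.5 times under other normalizations, count limits and pseudocounts, but 77 of the members were chosen again with quantile normalization (of 115 genes), 91 with TMM (of 99) and 80 with data sets 2 and 4 alone (of 105). With no replicate block 77 genes were chosen, 74 of them members. Under these settings and both other pseudocounts, 6 in all, 42 members were chosen each time. With an adjusted p the number was 1. Leaving out 1 library or 1 replicate gave 40 to 177 genes: 40 without replicate 2, 177 without replicate 1 and 174 without the 36 h library of replicate 1. The number of ER genes, 15, was 0 with an adjusted p, 3 without replicate 2, 10 without replicate 1, 19 with quantile normalization or the title letter as a block, and 11 to 21 without 1 library, the highest without the 32 h or the 36 h library of replicate 1.

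Genes chosen in replicate 1 peaked in the window in replicate 2 in 23.3% to 35.5% of cases over the alternatives, and the lowest, with quantile normalization, was below the 28.4% of all genes. For genes chosen in replicate 2 the range was 16.6% to 25.5%. It was 16.6% without the 16 h library of replicate 1 (14.8% of all genes) and 21.4% without the 28 h library of replicate 2 (21.7%). Members called for the replicate difference numbered 29 to 44. For the day difference edgeR called 0 members, 2 were called by DESeq2 (584 genes) and 0 to 4 when 1 library was left out, the 4 without the 32 h library of replicate 2 (647 genes): CG4408, CG4409, Ser7 and 1 without a name. No setting called a member for the 12 h pattern. Neither did leaving out the replicate block change a call for the day or the 12 h pattern, with 0 members each, nor did the title letter as a block, under which 33 members were called for the replicate difference. Replicates came from independent crosses, the number of crosses in each is not given, and the block is a term of the rule. Deviations of libraries of 1 replicate from the means of the time points correlated at a median of 0.19, and the lowest correlation was -0.72. Depth limits members with few counts, 10 of which had a mean below 50. The causes of these changes were not tested.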
